A study of Homo sapiens with 20 samples.

Results

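The response of the whole transcriptome to dexamethasone, a synthetic glucocorticoid, was measured in HEK293-GR cells that carried a control small interfering RNA (siRNA). HEK293-GR is a human embryonic kidney line that constitutively expresses the glucocorticoid receptor (GR), and the labels do not say whether it is 1 clone. The comparison rests on 8 of the 20 samples of the series and of its 16 RNA libraries, chosen by their labels alone: 4 libraries of the group siNON_dex and 4 of siNON_EtOH. Cells of both groups were kept in steroid-depleted medium for 48 h and transfected with 20 nM of a non-targeting siRNA pool (siNON) for 72 h. They then received 100 nM dexamethasone (dex) or an equal volume of its ethanol vehicle for 6 h. All groups share the constitutive GR, the depleted medium and the transfection. A parallel set of 8 libraries from cells with an siRNA pool against the corepressor BCOR (siBCOR, 20 nM for 72 h, dex or vehicle for 6 h) entered the same statistical fit. BCOR binding to chromatin was available as peak lists from HEK293-GR cells, with no siRNA named in their labels, after 1 h of 100 nM dex or vehicle. The extraction protocol speaks of 4 biological replicates and the series text of 3, and all 4 that are labelled were used.

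GR is a nuclear receptor that waits in the cytoplasm with chaperones, moves to the nucleus when it binds hormone, and attaches to DNA elements near its targets. It raises some genes directly, such as the cochaperone gene FKBP5 and the clock gene PER1, and lowers others, often genes driven by growth factors or inflammation. In the body glucocorticoids shift fuel use, hold back inflammation, retain sodium and slow growth.

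Reads on the transcripts that stand for the genes numbered 18580291 to 25461024 in the 8 siNON libraries, and 16432 genes passed the filter on low counts. Levels are CPM, each gene's reads relative to the TMM-scaled library size, given for replicates 1 to 4 in order or as mean ± SD (n = 4), and levels of different genes are compared only per kilobase of transcript (RPKM). A gene is called higher or lower at a false discovery rate of 0.05 by edgeR's quasi-likelihood test, with p adjusted over all 16432 genes. After a log2 fold change, ± gives a standard error worked out from the test statistic and not an SD of replicates. All 14 listed HEK293 markers had reads. Of 12 immune markers 11 averaged under 1 CPM and CD3D, MS4A1 and HBB had no read in these 8 libraries. None of the 3 immune markers that could be tested was called, while of 6 tested fibroblast and vessel markers 1 rose (KDR, 1.33 on the log2 scale) and of 3 tested liver and gut markers 2 fell (CDX2, -0.99, and EPCAM, -0.19). Their summed level ran from 13.9 to 17.6 CPM for immune, from 35.3 to 57.0 CPM for fibroblast and vessel and from 261.6 to 332.8 CPM for liver and gut markers, and their part in the results was not tested. Each sum rested largely on 1 gene: CD68 averaged 13.7 CPM, COL1A1 33.9 CPM and EPCAM 258 CPM. Of 12 fibroblast and vessel markers 8 averaged under 1 CPM, and of 12 liver and gut markers 9 did. Vehicle replicate 3 and dex replicate 4 stood apart from the rest of their groups. Over 10641 genes with a mean of at least 10 CPM, the SD of the log2 difference from the other libraries of the group was 0.31 and 0.33 in these, against 0.11 to 0.19 in the other 6. The 2 libraries deviated alike (r = 0.91 across genes, which are not independent replicates). List counts that moved by more than 1.5 times without both are given with and without them.

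Dexamethasone changed 3180 genes, 19.4% of those tested: 1760 were higher (10.7%) and 1420 lower (8.64%). Most changes were small, with a median fold of 1.40 among the genes that rose and 1.45 among those that fell. At least 2-fold, 394 genes rose (2.4%) and 226 fell (1.38%). At least 4-fold the counts were 149 and 17, at least 8-fold 75 and 2, and at least 32-fold 28 and 0. These are fitted folds, and those of genes with no vehicle read depend on the prior count of the fit. For several such genes among the 28 the lower bound given below is under 32-fold. The dex and vehicle libraries did not overlap in 3262 genes (19.9%), among them 1470 of those called higher and 1164 of those called lower. Without both libraries that stood apart, 1746 genes rose and 1676 fell, and no gene was called in the opposite direction. Among the 12 largest changes in each direction with at least 50 reads on average and no overlap, LOC100506585 (7.84), which lies within PTPRN2, LOC285097 (6.83), the pepsinogen gene PGC (5.45) and the plasmin inhibitor gene SERPINF2 (5.18) rose, and ANOS1 (-2.11), which guides olfactory axons, the ubiquitin ligase gene MID1 (-2.05) and RNF122 (-2.02) fell. In bulk RNA, a change in the mix of cells and a change of RNA per cell cannot be told apart.

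**Figure D1:**
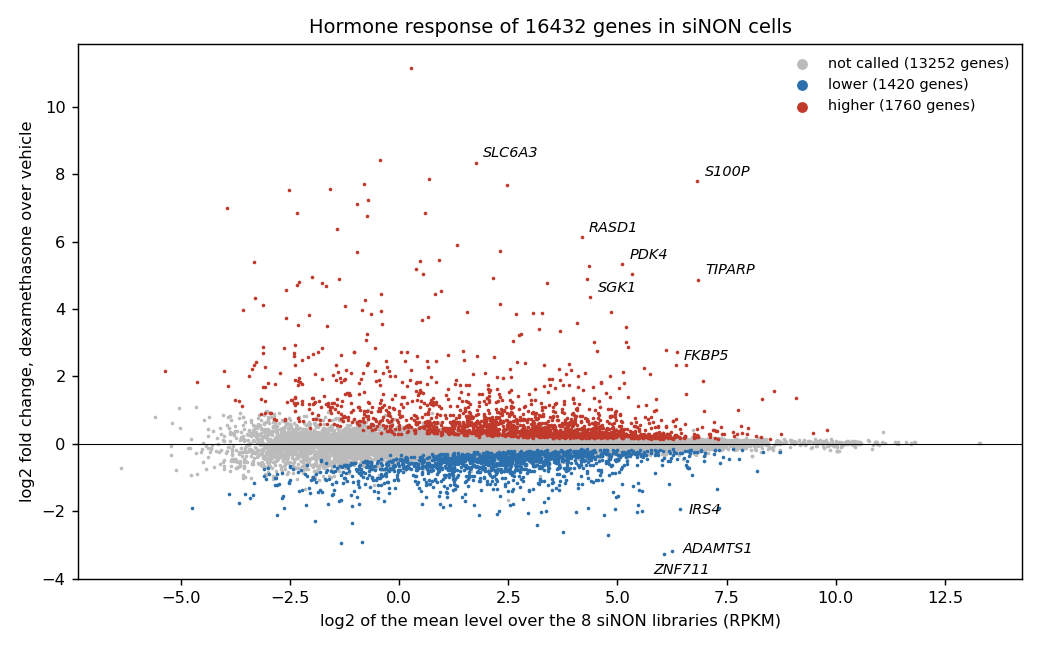
Log2 fold change (dexamethasone over vehicle, fitted by edgeR) against the mean level over the 8 siNON libraries on a log2 RPKM axis, 1 point per gene, coloured by call. The 149 genes that rose at least 4-fold outnumber the 17 that fell as much, and points of genes with no vehicle read depend on the prior count of the fit.

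Large changes were more numerous at low levels. Of the 4108 genes with the lowest RPKM 207 rose at least 2-fold and 99 fell as much, while of the 4108 with the highest 48 rose and 27 fell. Genes called higher held 7.73% to 8.33% of the reads in the vehicle libraries and 10.8% to 11.9% in the dex libraries. For genes called lower the share went from 7.09% to 8.08% down to 4.77% to 5.07%. These shares describe genes chosen by the same contrast. Protein-coding genes were called higher in 11.4% and lower in 9.01% of cases, against 6.43% and 7.17% of the 1618 noncoding RNAs. None of the 72 cytosolic ribosomal protein genes, 51 NDUF genes of respiratory complex I, 20 histone genes or 47 small nucleolar RNAs passed the test in either direction. The ribosomal values lay between -0.09 and 0.10 on the log2 scale. The median was 0.06 for NDUF genes, -0.11 for histone genes and -0.20 for small nucleolar RNAs, so a lack of calls does not show these to be unchanged.

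Of 27 genes for the receptor, its chaperones and coregulators 5 rose, 6 fell and 16 were not called (median log2 fold change -0.04, against -0.0044 over all genes). The shares over all genes tested, 10.7% higher and 8.64% lower, are the comparison for this list and those that follow. The lists were chosen with earlier results of these data known. Their shares are therefore descriptions and cannot serve as a test of enrichment. FKBP5, which folds onto GR and lowers its affinity for hormone (hg19 chromosome 6, 35541362 to 35656692, minus strand), stood at 104, 102, 105 and 102 CPM in the vehicle libraries and 516, 519.6, 502 and 534 CPM in the dex libraries (2.33 ± 0.06 log2, adjusted p = 3.6e-15). Its libraries were tight within each group and far apart between them. HSD11B2, the enzyme that inactivates cortisol, rose from 6.22 ± 0.287 to 9.93 ± 1.48 CPM (0.68). NR3C1, the GR gene, stood at 943, 1035, 1071 and 942 CPM with vehicle and 706, 692, 679 and 748 CPM with hormone and fell (-0.50 ± 0.05, adjusted p = 1.8e-06). Reads of the endogenous gene and of the expressed receptor cannot be told apart here. The mineralocorticoid receptor gene NR3C2 fell from 18.3 ± 1.38 to 9.43 ± 0.417 CPM (-0.96), and the chaperone gene PTGES3 (p23) fell slightly (-0.23). The chaperone gene HSPA8 rose by 0.32, but its groups overlapped and it passed the threshold in only part of the alternatives, with adjusted p from 0.020 to 0.13.

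BCOR itself, the corepressor whose chromatin binding the series examines, responded to the hormone in these control cells. Its level was 227, 210.3, 159 and 189 CPM with vehicle and 96.8, 102, 106 and 70.6 CPM with dex, so every dex library lay below every vehicle library (-1.06 ± 0.11, adjusted p = 1.4e-06). The lowest value of each group was in vehicle replicate 3 and dex replicate 4. Of 44 tested genes for Polycomb and histone methylation proteins, BCOR among them, 6 rose (13.6%), 3 fell (6.82%) and 35 were not called (median -0.01). Over all genes tested the shares were 10.7% and 8.64%. Without vehicle replicate 3 and dex replicate 4, 5 genes of this list rose and 5 fell. PHF19, an accessory subunit of Polycomb complex PRC2, rose by 0.54. KDM6A, a demethylase that removes the PRC2 mark, was at -0.40 and the PRC2 cofactor JARID2 at -0.28, both lower, while the PRC2 enzyme gene EZH2 stood at -0.15 (adjusted p = 0.15).

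Of 26 transcription factors known as glucocorticoid targets 13 rose (50%), 3 fell and 10 were not called, with a median of 0.29. PER1, a repressor of the circadian clock, stood at 43.8, 36.2, 30.3 and 40.9 CPM with vehicle and 317, 339, 328 and 232 CPM with dex (3.01 ± 0.14, adjusted p = 2.0e-11). Dex replicate 4 was the lowest of the treated libraries and still far above the highest vehicle library. CEBPD, a leucine zipper factor of adipocyte and acute-phase programmes, stood at 3.50, 2.52, 3.26 and 3.52 CPM and 46.5, 39.6, 31.6 and 36.4 CPM (3.58 ± 0.20). TSC22D3, which encodes the anti-inflammatory protein GILZ, stood at 361, 459, 314 and 383 CPM and 1160.0, 1125, 1224 and 993 CPM (1.57 ± 0.12). In all 3 genes the groups did not overlap. KLF15, a regulator of amino acid and fuel metabolism, rose from 17.1 ± 1.66 to 57.4 ± 1.97 CPM (1.74), and ZBTB16 (PLZF) from 6.62 ± 0.347 to 16.2 ± 0.849 CPM (1.29). The forkhead factors FOXO1 and FOXO3 rose modestly, by 0.42 and 0.42. KLF9, often raised by glucocorticoids in other tissues, was at 23.3 ± 1.92 to 26.9 ± 3.74 CPM, vehicle to dex, and its libraries overlapped (0.20, adjusted p = 0.21). The 3 that fell were PPARGC1A, BHLHE40 (-1.30) and CITED2 (-0.57).

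**Figure D2:**
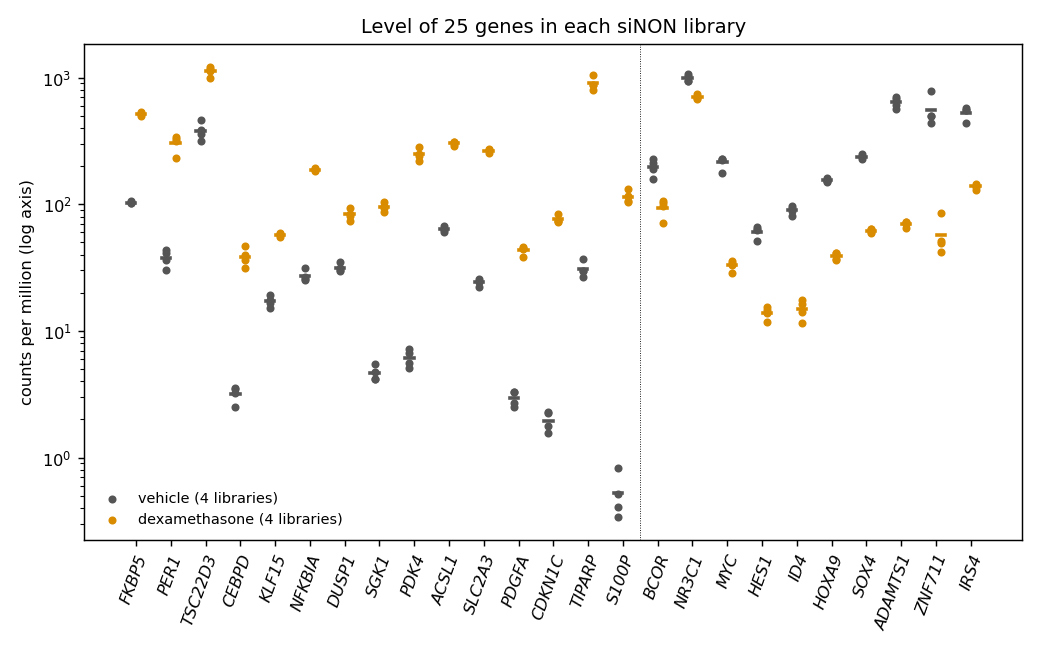
CPM (log axis) of 25 genes in each of the 8 siNON libraries; points are libraries and short bars are group means. Genes left of the dotted line rose and those right of it fell, and in none of the 25 do the vehicle and dex points overlap.

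Brakes on kinase and inflammatory signalling split in both directions. Of 37 tested, 11 rose (29.7%), 10 fell (27.0%) and 16 were not called, with a median of 0.01. RASD1, a small GTPase of the RAS family first described as induced by dexamethasone, stood at 0.836, 0.726, 0.719 and 1.26 CPM with vehicle and 63.0, 63.6, 66.5 and 55.8 CPM with dex (6.13 ± 0.14, adjusted p = 3.4e-15). NFKBIA, the inhibitor that holds NF-kB in the cytoplasm, stood at 26.5, 25.4, 25.5 and 31.2 CPM and 188, 194, 188 and 182 CPM (2.79 ± 0.07). DUSP1, the phosphatase that switches off p38 and JNK, stood at 34.9, 31.4, 29.6 and 30.1 CPM and 81.3, 94.2, 73.5 and 83.3 CPM (1.40 ± 0.08). Each of these had all dex libraries above all vehicle libraries. ZFP36, which destabilises cytokine mRNAs, rose by 2.01, the ubiquitin-editing enzyme gene TNFAIP3 by 1.12, the EGF receptor inhibitor gene ERRFI1 by 0.91 and the cytokine inhibitor gene SOCS2 by 0.62. In the other direction RGS16, which shortens G protein signals, fell from 64.4 ± 5.2 to 16 ± 0.927 CPM (-2.01). The pseudokinase genes TRIB1 (-2.0) and TRIB2 (-1.08) and the ERK phosphatase gene DUSP5 (-1.33) fell as well. DUSP6, another ERK phosphatase gene, stood at -0.46 (adjusted p = 0.012) and was not called with replicates 1 to 3 alone (adjusted p = 0.084), while the Sprouty genes SPRY1 (-0.11, adjusted p = 0.46) and SPRY4 (0.21, adjusted p = 0.36) were not called.

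Genes of insulin, AKT and mTOR signalling rose in 8, fell in 3 and were not called in 19 of 30 cases (median 0.06). SGK1, a kinase that raises sodium uptake, stood at 4.78, 4.16, 5.50 and 4.15 CPM with vehicle and 93.4, 104, 86.6 and 96.7 CPM with dex (4.35 ± 0.11, adjusted p = 3.6e-15). DEPTOR, an inhibitor of mTOR, rose by 0.96, and the muscle atrophy ubiquitin ligase gene FBXO32 by 0.68. IRS4, an insulin receptor substrate outside this list, stood at 551, 573, 552 and 437 CPM with vehicle and 139, 138, 145 and 131 CPM with dex (-1.93 ± 0.07, adjusted p = 1.3e-12). All dex libraries lay far below all vehicle libraries. IRS2 was at 0.23 (adjusted p = 0.37) and did not pass. The growth factor binding protein gene IGFBP5 fell from 95.7 ± 9.85 to 28.7 ± 3.64 CPM (-1.73) and its relative IGFBP3 rose from 0.175 ± 0.0341 to 1.15 ± 0.136 CPM (2.67). PIK3R3, a regulatory subunit of PI3 kinase, fell (-0.55). DDIT4, an mTOR inhibitor raised by glucocorticoids elsewhere, went from 158 ± 33.9 to 211 ± 9.10 CPM without overlap of the groups, but missed the threshold (0.42, adjusted p = 0.085). It passed with the replicate number as a block or without vehicle replicate 2, with adjusted p from 0.030 to 0.27 over the alternatives.

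Fuel metabolism genes rose in 11 (25.6%), fell in 4 and were not called in 28 of 43 cases (median 0.08). PDK4, which shuts pyruvate out of the citric acid cycle, stood at 5.14, 7.16, 6.73 and 5.60 CPM with vehicle and 242, 249, 218 and 281 CPM with dex (5.33 ± 0.12, adjusted p = 2.9e-15). ACSL1, which activates long-chain fatty acids, stood at 62.3, 63.6, 67.9 and 60.3 CPM and 302, 312, 291 and 309.8 CPM (2.26 ± 0.06). The glucose transporter gene SLC2A3 (GLUT3), outside this list and named after its values were seen, stood at 25.7, 24.2, 22.0 and 24.9 CPM and 270.4, 267, 272 and 253 CPM (3.46 ± 0.08). All 3 had narrow groups with a wide gap between them. TXNIP, an arrestin-like inhibitor of glucose uptake, rose from 27.4 ± 8.01 to 83.0 ± 4.64 CPM (1.6) and lies within the spans of 3 NBPF genes, whereas ARRDC4, a gene of the same arrestin family, fell from 60.4 ± 11.0 to 11.5 ± 1.25 CPM (-2.40) and ARRDC2 rose by 1.05. The genes of gluconeogenesis were low in this kidney line and moved apart: G6PC went from 0.300 ± 0.0887 to 2.14 ± 0.332 CPM (2.84) and PCK1 from 1.17 ± 0.230 to 0.235 ± 0.104 CPM (-2.30), both past the threshold. SCD, the fatty acid desaturase gene, fell from 1065 ± 73.6 to 720.1 ± 73.2 CPM (-0.56).

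Transport of sodium, potassium and water rose in 8, fell in 1 and was not called in 19 of 28 genes (median 0.11), and without vehicle replicate 3 and dex replicate 4, where 29 could be tested, 9 rose and 2 fell. Subunits of the epithelial sodium channel rose from low levels: SCNN1A from 0.755 ± 0.137 to 2.86 ± 0.488 CPM (1.92) and SCNN1G from 0.254 ± 0.0577 to 1.66 ± 0.421 CPM (2.72). The taurine transporter gene SLC6A6 rose from 91.6 ± 8.56 to 220.2 ± 26.1 CPM (1.27). Metal handling and oxidative defence genes rose in 7, fell in 4 and were not called in 11 of 22 cases (median 0.13). The metallothionein genes MT1X (1.75) and MT2A (1.13), the zinc importer gene SLC39A14 (1.01) and the zinc exporter gene SLC30A1 (0.91) rose, while HMOX1, which degrades haem, fell from 24.0 ± 1.83 to 11.7 ± 1.40 CPM (-1.03). Across all 301 tested genes with an SLC transporter symbol 49 rose (16.3%) and 27 fell (8.97%), with a median of 0.0024. Of 60 genes with a potassium channel symbol (KCN) 13 rose (21.7%) and 5 fell (8.33%), with a median of -0.019. Over all genes tested the shares were 10.7% and 8.64%. Both families were taken by symbol alone, and other families were counted too.

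A group of 19 genes called higher had at most 3 reads over the 4 vehicle libraries. With so few reads there, these genes passed the filter on low counts through other libraries. The reverse group, genes called lower with as few reads in the dex libraries, was not counted. The group therefore does not show whether such changes were more common in either direction. SLC6A19, an amino acid transporter of kidney and gut, had no read with vehicle and 13.2, 13.8, 12.5 and 10.2 CPM with dex, at least 379-fold higher against a floor of 3 reads over the group. LOC102724484 (at least 58.3-fold), LINC02432 (at least 35.5-fold), the tubulin gene TUBA3C (at least 31.5-fold), the kidney cadherin gene CDH16 (at least 31.0-fold), SCRG1 (at least 25.3-fold), the cystatin gene CST4 (at least 22.9-fold), the salt transporter gene SLC12A3 (at least 21.8-fold), IGFBP1 (at least 19.1-fold), WFDC11 (at least 13.8-fold) and MIR4457 (at least 10.2-fold) also had no vehicle read. MIR4457 is a short precursor entry, and its reads may belong to a longer transcript. The rest had 1 to 3 vehicle reads: PNLIP, the pancreatic lipase gene, had 1 read with vehicle and 153 with dex, a ratio of 161 (95% interval 28.5 to 6417 from counting alone), and the receptor gene GPR6 had 3 and 170, a ratio of 59.8 (20.1 to 293). The other 6 (TRPC5OS, NPFFR1, SLA, LAD1, SPINK13 and CYTIP) had ratios between 21.6 and 63.3. TUBA3E and TUBA3D, testis-type alpha tubulins, reached 17.5, 17.1, 16.1 and 16.9 and 13.9, 17.6, 15.6 and 16 CPM in the dex libraries from vehicle means of 0.0758 and 0.290 CPM. The 3 TUBA3 genes are near-identical copies and their reads may be split between them. LOC102724484 lies within the span of CHN2, and its reads may belong to that gene.

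GR binds an inverted repeat of a hexamer spaced by 3 bases. A relaxed form of it, GNACA and TGTNC with 3 bases of any kind (N) between them, which reads the same on both strands, was looked up in RefSeq promoter sequences (GRCh38.p14, 250 bases before to 50 after each start site). It occurred in 137 of 35116 promoters (0.390%). Promoters could be matched for 12793 of the 16432 genes (77.9%), too few for a share over all of them. Among the protein-coding genes used for this count, of which 83.3% of those called higher, 82.7% of those called lower and 84.3% of those not called were matched, the element stood in 15 of 1316 genes that rose (1.14%), 5 of 1015 that fell (0.493%) and 23 of 9314 not called (0.247%). A match is only a run of letters, and most responding genes have none in this window. The promoters of the 6 matched genes that rose at least 2-fold are printed because they carry these letters close to the start of a responding gene; FAM107A has the element before each of 2 start sites, and the reads do not say which start was used. Capitals mark the element.
FAM107A, chr3:58586965-58587264, minus strand: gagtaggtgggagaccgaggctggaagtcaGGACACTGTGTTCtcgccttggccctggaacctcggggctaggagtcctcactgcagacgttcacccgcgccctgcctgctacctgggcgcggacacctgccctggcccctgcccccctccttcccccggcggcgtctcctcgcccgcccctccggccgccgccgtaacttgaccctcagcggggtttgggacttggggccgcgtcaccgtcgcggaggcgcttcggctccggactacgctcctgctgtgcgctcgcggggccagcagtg
FAM107A, chr3:58577342-58577641, minus strand: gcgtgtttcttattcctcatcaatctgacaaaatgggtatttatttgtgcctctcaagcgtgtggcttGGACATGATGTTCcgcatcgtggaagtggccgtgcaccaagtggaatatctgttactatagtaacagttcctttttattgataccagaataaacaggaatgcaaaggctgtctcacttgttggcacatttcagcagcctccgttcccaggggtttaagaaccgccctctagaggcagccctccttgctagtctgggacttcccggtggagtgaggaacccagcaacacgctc
KCNA5, chr12:5043629-5043928, plus strand: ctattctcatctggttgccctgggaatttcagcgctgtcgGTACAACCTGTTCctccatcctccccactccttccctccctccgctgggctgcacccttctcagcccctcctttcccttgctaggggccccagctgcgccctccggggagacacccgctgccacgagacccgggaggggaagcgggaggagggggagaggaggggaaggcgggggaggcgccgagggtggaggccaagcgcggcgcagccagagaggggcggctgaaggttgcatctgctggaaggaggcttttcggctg
WNT16, chr7:121328750-121329049, plus strand: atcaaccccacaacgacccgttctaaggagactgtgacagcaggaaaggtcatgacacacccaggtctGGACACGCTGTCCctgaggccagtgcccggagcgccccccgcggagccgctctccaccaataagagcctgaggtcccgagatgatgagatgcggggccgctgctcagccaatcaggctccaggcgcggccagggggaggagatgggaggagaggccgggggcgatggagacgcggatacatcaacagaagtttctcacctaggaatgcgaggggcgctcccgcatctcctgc
SLC38A11, chr2:164955476-164955775, minus strand: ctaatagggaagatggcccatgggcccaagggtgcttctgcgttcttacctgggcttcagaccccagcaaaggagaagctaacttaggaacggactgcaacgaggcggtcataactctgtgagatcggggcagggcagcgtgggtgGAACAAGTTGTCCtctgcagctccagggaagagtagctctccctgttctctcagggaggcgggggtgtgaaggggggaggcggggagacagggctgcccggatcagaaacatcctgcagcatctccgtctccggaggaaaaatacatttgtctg
TXNIP, chr1:145996530-145996829, minus strand: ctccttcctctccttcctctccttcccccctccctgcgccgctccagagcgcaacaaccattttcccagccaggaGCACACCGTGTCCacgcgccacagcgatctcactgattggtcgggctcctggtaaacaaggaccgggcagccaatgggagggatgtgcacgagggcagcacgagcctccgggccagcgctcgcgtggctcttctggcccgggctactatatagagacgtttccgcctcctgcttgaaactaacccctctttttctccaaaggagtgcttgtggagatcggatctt
MAP3K6, chr1:27366912-27367211, minus strand: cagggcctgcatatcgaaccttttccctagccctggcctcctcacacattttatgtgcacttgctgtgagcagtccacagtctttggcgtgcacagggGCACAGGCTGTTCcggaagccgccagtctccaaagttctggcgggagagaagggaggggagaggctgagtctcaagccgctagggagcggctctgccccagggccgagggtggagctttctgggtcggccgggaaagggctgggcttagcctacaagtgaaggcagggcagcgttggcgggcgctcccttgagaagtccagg

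These 6 genes span a wide range of levels, and all were named after their values were seen. WNT16, a Wnt ligand, stood at 4.14, 5.71, 4.82 and 5.06 CPM with vehicle and 52.2, 54.3, 47.2 and 54.3 CPM with dex (3.40 ± 0.09, adjusted p = 5.7e-15), with its element 182 bases before the start site. FAM107A, an actin-associated stress gene, rose from 0.0446 ± 0.0370 to 1.37 ± 0.246 CPM (4.80), the potassium channel gene KCNA5 from 0.0851 ± 0.0539 to 1.06 ± 0.128 CPM (3.53), the amino acid transporter gene SLC38A11 from 0.238 ± 0.0716 to 2.10 ± 0.519 CPM (3.08) and the kinase gene MAP3K6 from 11.8 ± 1.41 to 31.1 ± 2.14 CPM (1.40). In each of the 6 the dex libraries lay above all vehicle libraries. HOXA-AS3, an antisense transcript of the HOXA cluster, has the element too and fell from 30.9 ± 1.98 to 14.1 ± 0.691 CPM (-1.13), and its reads overlap HOXA6 and HOXA7.

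Secreted ligands fell more often than they rose. Of 61 growth factors and ligands tested, 7 rose (11.5%), 26 fell (42.6%) and 28 were not called (median -0.30). PDGFA, a mitogen for mesenchymal cells, went against this and stood at 3.26, 3.29, 2.50 and 2.71 CPM with vehicle and 46.2, 44.1, 45.5 and 38.6 CPM with dex (3.89 ± 0.12, adjusted p = 4.8e-14). FGF18 rose from 0.304 ± 0.113 to 6.70 ± 0.124 CPM (4.43), THBS1 (thrombospondin) from 4.80 ± 0.907 to 14.2 ± 2.09 CPM (1.57) and CCN2 (connective tissue growth factor) by 0.82. FGF9 (-1.79), the axon guidance ligand gene SEMA3C (-1.81), PDGFC (-1.01) and WNT5A (-0.96) fell. Among 57 receptor genes 9 rose, 17 fell and 31 were not called (median -0.14). EPHB3 (1.64), MERTK (1.26), a receptor for uptake of dying cells, and EGFR (1.13) rose, where an antisense transcript overlaps EGFR. The netrin receptor gene UNC5B fell from 64.7 ± 8.17 to 18.8 ± 2.47 CPM (-1.78), and the semaphorin coreceptor genes NRP1 (-1.29) and NRP2 (-1.20) and the FGF receptor gene FGFR2 (-1.12) fell with it.

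Targets of TGF-beta, BMP and Notch signalling gave 1 gene higher, 17 lower (60.7%) and 10 not called of 28 (median -0.44), and 2 higher and 17 lower without vehicle replicate 3 and dex replicate 4. ID4, which blocks helix-loop-helix factors, stood at 88.5, 81.3, 97.0 and 93.5 CPM with vehicle and 14.1, 16.2, 11.6 and 17.4 CPM with dex (-2.61 ± 0.11, adjusted p = 1.0e-11). HES1, the Notch-driven repressor, stood at 65.9, 62.9, 51.0 and 63.6 CPM and 14.6, 15.6, 13.9 and 11.7 CPM (-2.12 ± 0.11), and HEY1, of the same pathway, fell by 1.37. No dex library reached the lowest vehicle library in either gene. ID1 (-1.14), ID3 (-1.14) and ID2 (-0.29), the BMP decoy receptor gene BAMBI (-0.97) and the inhibitory SMAD genes SMAD6 (-0.98) and SMAD7 (-0.42) were all lower. The exception was TGIF1, a corepressor of TGF-beta signalling, which rose by 0.40.

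Of 33 immediate early genes 6 rose, 12 fell and 15 were not called (median -0.28). PHLDA1 stood at 7.21, 7.5, 7.91 and 7.90 CPM with vehicle and 66.5, 75.8, 66.1 and 77.5 CPM with dex (3.23 ± 0.09), the antiproliferative gene BTG2 rose by 0.83 and the orphan receptor gene NR4A1 by 1.00. JUN, a subunit of AP-1, stood at 376, 339, 286 and 339 CPM and 152, 149, 143 and 138 CPM (-1.20 ± 0.10). ATF3 (-1.14) and the antiproliferative gene BTG1 (-0.90) were lower too. FOS was at 6.97 ± 1.17 to 5.09 ± 1.19 CPM and overlapped (-0.47, adjusted p = 0.057), and it was past the threshold in 9 of the 18 alternatives (adjusted p from 0.017 to 0.19).

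MYC, a driver of growth, stood at 227, 226, 178 and 226 CPM with vehicle and 34.5, 35.8, 33.3 and 28.9 CPM with dex (-2.69 ± 0.10, adjusted p = 1.1e-12). The lowest vehicle library, replicate 3, was still far above the highest dex library. In the MYC network and ribosome production list 2 genes rose, 11 fell (29.7%) and 24 were not called of 37 (median -0.17). The other falls in it were under 2-fold, with POLR1B, a subunit of RNA polymerase I, at -0.40, the telomerase and snoRNA cofactor gene DKC1 at -0.24 and the nucleolar gene NCL at -0.24, which missed the threshold when any 1 of 5 libraries was left out (adjusted p up to 0.096). MYCL rose by 0.58, and MXI1, a MYC antagonist, fell by 0.40.

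Among cell cycle drivers and inhibitors 5 rose (10.4%), 6 fell (12.5%) and 37 were not called of 48 (median -0.05). Over all genes tested the shares were 10.7% and 8.64%. Without vehicle replicate 3 and dex replicate 4, 3 genes of this list rose and 8 fell. The largest rises were in 2 kinase inhibitors. CDKN1C (p57) stood at 2.23, 2.27, 1.57 and 1.76 CPM with vehicle and 84.1, 73.0, 74.2 and 73.7 CPM with dex (5.28 ± 0.15, adjusted p = 1.8e-14). CDKN1A (p21) stood at 75.8, 67.6, 65.9 and 74.6 CPM and 365, 375, 346 and 346 CPM (2.33 ± 0.07). Both pairs of groups were far apart. The inhibitor gene CDKN2B (p15), overlapped by an antisense transcript, fell (-0.52), and so did the cyclin D genes CCND1 (-0.77) and CCND2 (-0.70) and the S-phase factor gene E2F3 (-0.30). Among 34 apoptosis regulators 8 rose, 5 fell and 21 were not called (median 0.07). BIRC3, an inhibitor of caspases, rose from 2.96 ± 0.666 to 13.6 ± 4.60 CPM (2.19), with dex replicate 4 the highest library at 20.3 CPM. The BH3-only death genes BMF (-1.25) and HRK (-0.97) and the survival gene BCL2 (-0.57) fell. BCL2L11 (BIM), the BH3-only gene raised by glucocorticoids in lymphoid cells, was at 51.3 ± 3.38 to 54.0 ± 3.87 CPM (0.08, adjusted p = 0.54).

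HOX genes, which specify position along the body axis, were the list with the largest share of falls. Of 36 tested, 30 fell (83.3%), 2 rose and 4 were not called, with a median of -0.86. HOXA9 stood at 162, 152, 152 and 151 CPM with vehicle and 41.3, 40.9, 37.2 and 36.2 CPM with dex (-1.99 ± 0.06, adjusted p = 1.6e-13). HOXA10 (-1.58), HOXC4 (-1.38) and HOXA5 (-1.18) followed. The 2 that rose were HOXB13 (0.38) and HOXB4 (0.36). Neighbouring HOX genes and their antisense transcripts share reads, so these are not 36 separate measurements. Without both libraries that stood apart 31 fell and 2 rose. Other developmental transcription factors gave 4 higher, 43 lower (58.1%) and 27 not called of 74 (median -0.47). SOX4, a progenitor factor, stood at 252, 239, 226 and 236 CPM and 63.7, 63.6, 59.0 and 60.8 CPM (-1.95 ± 0.05, adjusted p = 1.9e-14). Its dex libraries were all far below the vehicle libraries. NR2F1 (-1.64), FOXC1 (-1.42) and POU3F2 (-1.34) fell. The 4 that rose were SNAI2 (2.11), a repressor of epithelial genes, SOX9 (1.19), MSX2 (1.08) and FOXC2. Of the 14 HEK293 markers 8 fell, among them the kidney progenitor gene EYA1 (-1.06), the neurofilament gene NEFL (-0.63) and VIM (vimentin, -0.45), and 2 rose, the keratins KRT8 (0.53) and KRT18 (0.41), whose transcripts overlap. Their summed level ran from 1458 to 1748 CPM with vehicle and from 1516 to 1634 CPM with dex.

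**Figure D3:**
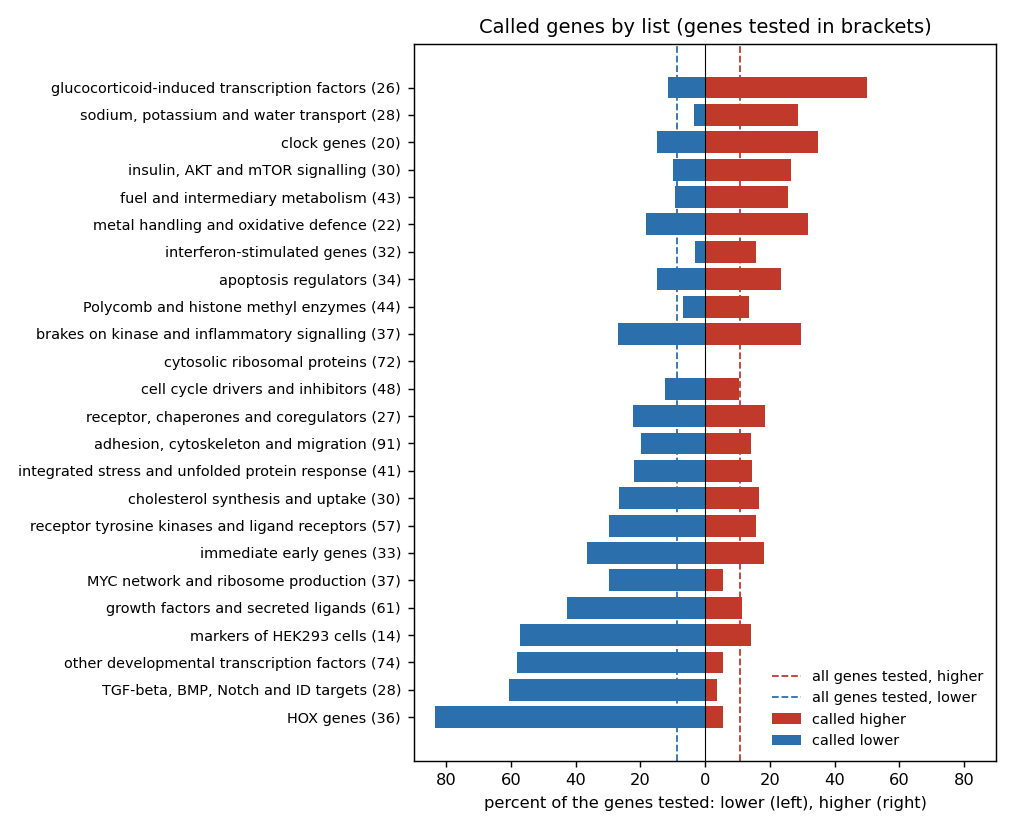
Percent of the tested genes of each list that were called lower (left) and higher (right), with dashed lines for all 16432 genes (8.64% and 10.7%). HOX genes lie farthest to the left with 83.3% lower, and transcription factors known as glucocorticoid targets farthest to the right with 50% higher. The lists were chosen with earlier results of these data known, so the bars are descriptions.

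Adhesion, cytoskeleton and migration genes rose in 13, fell in 18 and were not called in 60 of 91 cases (median -0.10). ADAMTS1, a secreted protease of the matrix (hg19 chromosome 21, 28208606 to 28217728, minus strand), stood at 674, 698, 565 and 610.5 CPM with vehicle and 72.0, 72.6, 70.3 and 64.6 CPM with dex (-3.19 ± 0.07, adjusted p = 2.9e-15). Its relative ADAMTS9 rose from 7.30 ± 0.808 to 17.4 ± 1.58 CPM (1.25), where an antisense transcript overlaps. RHOB, a GTPase of actin and endosomes, rose from 127 ± 12.3 to 459.6 ± 24.7 CPM (1.86). The cadherin genes PCDH19 (-2.08), PCDH7 (-1.41) and CDH7 (-2.34) fell.

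Cholesterol synthesis and uptake genes gave 5 higher, 8 lower and 17 not called of 30 (median -0.02). HMGCS1, near the start of the pathway, fell from 356 ± 62.4 to 138 ± 20.3 CPM (-1.37), SQLE by 0.43 and the feedback regulator gene INSIG1 by 0.72. NSDHL (1.33), a late enzyme of the pathway, and the lysosomal exporter gene NPC1 (0.66) rose. In the stress response list 6 rose, 9 fell and 26 were not called of 41 (median -0.03), and without vehicle replicate 3 and dex replicate 4 3 rose and 10 fell. HSPA1B, an inducible heat shock gene with 5 annotated copies, fell from 633 ± 141 to 169 ± 20.2 CPM (-1.90), and DDIT3 (-0.79), TRIB3 (-0.64) and the cystine transporter gene SLC7A11 (-1.26) were lower, while HERPUD1 (0.79) and DNAJB1 (0.54) were higher. Clock genes rose in 7 (35%), fell in 3 and were not called in 10 of 20 cases (median 0.12): beside PER1, PER2 (0.95), CRY2 (1.25), TEF (1.26) and ARNTL (0.72) rose, and BHLHE41 fell (-1.01). NR1D2 was lower (-0.66) but overlapped, with vehicle replicate 3 at 80.6 CPM and dex replicate 4 at 55.6 CPM, and was not called without dex replicate 1, 2 or 3. Interferon-stimulated genes gave 5 higher, 1 lower and 26 not called of 32 (median 0.07), and 5 higher and 3 lower without vehicle replicate 3 and dex replicate 4.

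The largest gains and losses of RNA per length included genes with small folds. S100P, a calcium-binding protein, stood at 0.518, 0.822, 0.338 and 0.406 CPM with vehicle and 116, 105, 131 and 106 CPM with dex and rose from 1.03 ± 0.423 to 226 ± 24.1 RPKM. TIPARP, an ADP-ribosylating enzyme, stood at 26.9, 29.7, 36.8 and 29.9 CPM and 881, 879, 794 and 1046 CPM and rose from 7.66 ± 1.05 to 224 ± 26.1 RPKM. The gain of TSC22D3, from 195 ± 31.1 to 578 ± 49.97 RPKM, was larger than both. The actin-binding gene TMSB10 rose only by 0.42 on the log2 scale, but from 766 ± 70.8 to 1021 ± 29.0 RPKM. EIF4A3, a helicase of the exon junction complex, went from 143 ± 10.2 to 288 ± 14.5 RPKM and RHOB from 53.6 ± 5.17 to 194 ± 10.4 RPKM. Among the losses, SAT1, which breaks down polyamines, went from 370.2 ± 13 to 212 ± 10.8 RPKM, ADAMTS1 from 137 ± 13 to 15.1 ± 0.787 RPKM, IRS4 from 136 ± 15.8 to 35.6 ± 1.55 RPKM and the keratin gene KRT19 from 137 ± 15.0 to 72.4 ± 2.21 RPKM. ZNF711, an X-linked zinc finger gene, had the largest fall in fold of the named genes, from 435, 494, 779.8 and 497 CPM with vehicle to 51.5, 49.1, 42.2 and 84.6 CPM with dex (-3.28 ± 0.21, adjusted p = 2.0e-09). Its highest libraries were vehicle replicate 3 and dex replicate 4, the same that stood apart, and without both the value was -3.33.

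There were runs of at least 3 neighbouring tested genes called in 1 direction with starts no more than 100 kb apart, 39 of increases (137 genes) and 20 of decreases (85 genes). No background is given for these counts. Some runs hold entries that share reads, such as MTHFS with ST20-MTHFS or PIGY with PYURF, so their genes are not all separate measurements. The longest run was the HOXA cluster on chromosome 7, where 18 entries in a row fell, HOTTIP the last of them, with a median of -1.11. The longest run of increases lay on hg19 chromosome 17 (70642085 to 71308143), with 7 genes from the zinc transporter gene SLC39A11 to CDC42EP4, a regulator of actin. CDC42EP4 stood at 43.5, 38.2, 36.3 and 41.6 CPM with vehicle and 179.5, 188, 176 and 159 CPM with dex (2.14 ± 0.08), SLC39A11 rose by 1.64 and the somatostatin receptor gene SSTR2 by 1.30. The middle genes COG1 (0.62), C17orf80 (1.51), FAM104A (1.82) and CPSF4L (1.49) overlap in a chain, so their reads are partly the same. On chromosome 4 (6576901 to 6698897) S100P was the last of 6 genes that rose, from MAN2B2 (0.47) onward. On chromosome 12 (7864050 to 8088892) the pluripotency genes DPPA3 (1.48) and NANOG (3.94) rose beside SLC2A14 (3.57) and SLC2A3, which are near-identical paralogs. NANOG went only from 0.186 ± 0.0220 to 2.95 ± 0.313 CPM. The cystatin genes CST1 (from 0.972 ± 0.233 to 29.0 ± 2.80 CPM), CST2 and CST4 rose from low levels beside the broadly expressed CST3 (0.66). Beside FKBP5, the genes LOC285847 (from 0.276 ± 0.104 to 6.45 ± 0.655 CPM) and ARMC12 (from 0.345 ± 0.178 to 10.4 ± 0.567 CPM) rose. On chromosome 5 SLC6A3, a dopamine transporter gene, stood at 0.0398, 0.0967, 0.127 and 0.0451 CPM with vehicle and 25.5, 29.0, 24.9 and 26.2 CPM with dex. TERT, which lies between SLC6A19 and SLC6A3, was at 3.35 ± 0.433 to 3.28 ± 0.386 CPM (-0.03, adjusted p = 0.91). Genes of these runs outside the named genes were named after their values were seen.

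**Figure D4:**
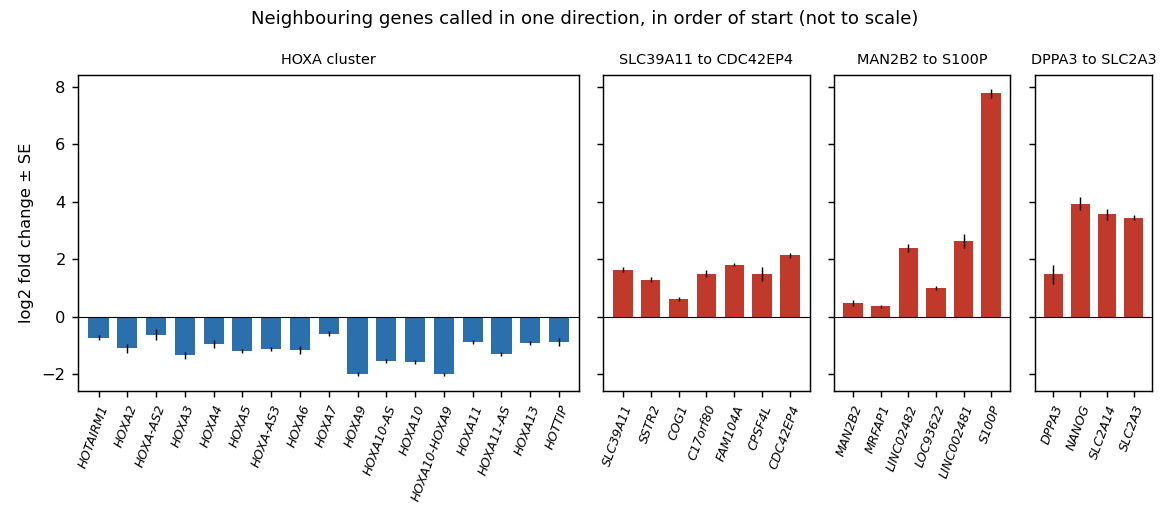
Log2 fold change ± SE (edgeR, n = 4 against 4 libraries) of the genes in 4 runs, in order of position and not to scale. The 17 plotted entries of the HOXA cluster, of 18 in the run, all fell, and the other 3 runs hold only increases, from 0.37 to 7.78.

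BCOR chromatin peaks were deposited as 3055 dex-enriched, 267 vehicle-enriched and 8587 shared peaks in hg19, measured after 1 h of hormone in an experiment apart from the RNA. A dex-enriched peak centre lay within 50 kb of the start site of 31.8% of the genes that rose, 12.2% of those that fell and 13.5% of all tested. The share increased with the size of the rise, from 28.4% of genes under 2-fold to 40.4%, 47.3% and 49.3% of those at 2- to 4-fold, 4- to 8-fold and at least 8-fold. For genes that fell under 2-fold and 2- to 4-fold it was 12.3% and 12.4%, and 0 of 17 genes with larger falls had one. Within 10 kb, the shares were 14.7% of genes that rose, 3.66% of those that fell and 4.08% of all tested. Shared peaks lay within 50 kb of 51.9% of the genes that rose, 53.7% of those that fell and 47.7% of all, and vehicle-enriched peaks of 2.5%, 3.38% and 2.74%. For changes of at least 2-fold, shared peaks lay within 50 kb of 44.4% of genes that rose and 59.3% of those that fell. Within 10 kb they lay near 27.7% of all genes that rose, 36.3% of those that fell and 26.4% of all tested. Each share is a description, without a test, since neighbouring genes share peaks.

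**Figure D5:**
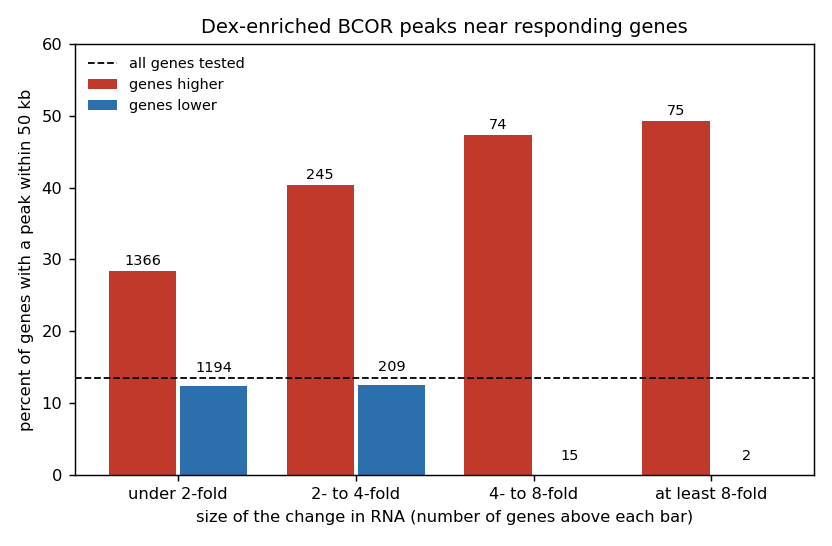
Percent of genes with a dex-enriched BCOR peak within 50 kb of the start site, by direction and size of the change in RNA; numbers above the bars count genes and the dashed line is all genes tested (13.5%). Bars of genes that rose climb from 28.4% to 49.3%, and those of genes that fell are at 12.3% and 12.4% or 0.

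For single genes the distances differed widely. The nearest dex-enriched peak lay 0.187 kb from the start of TIPARP, 0.311 kb from S100P, 0.531 kb from PER1, 0.623 kb from PDK4, 1.03 kb from FKBP5 and 1.29 kb from ACSL1. PDK4, FKBP5 and TSC22D3 had 3 such peaks each within 50 kb. SGK1, PDGFA, CDKN1A, CDKN1C, KLF15 and TUBA3E, which rose too, had none within 50 kb. Some genes that fell had a close one too: it lay 0.013 kb from the start of NRP2, the shortest distance of any named gene, 1.34 kb from HOXC4, 3.97 kb from ID2 and 8.67 kb from MXI1. IRS2, which was not called, had 2, the nearer at 2.36 kb. MYC, HOXA9, ID4, HES1, SOX4, ADAMTS1 and ZNF711, which fell, had none within 50 kb, while HOXA9 and ID4 each had 4 shared peaks there.

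Cells depleted of BCOR gave the setting for a direct test of whether the response differed. The test of the difference (siNON response minus siBCOR response) called 16 genes (0.0974%), 13 of them with the more positive value in siNON cells. PDGFA changed by 3.89 in siNON and by 2.03 in siBCOR cells (difference 1.86, adjusted p = 7.3e-05), ACSL1 by 2.26 and 1.63 (0.63, adjusted p = 0.0081), and S100P by 7.78 and 6.38 (1.40, adjusted p = 0.047). The count was not stable. It was 5 with RLE scaling, 3 with the replicate number as a block and 2 to 6 when any of the other 7 siNON libraries was left out, the lowest without dex replicate 3. Without dex replicate 4 it was 2537, of which 1096 had the more positive value in siNON cells, and without that library and vehicle replicate 3 together it was 1790, an alternative added after the data were seen. All 16 genes were among the 2537 and the 1790.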

How the data were processed

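RNA was measured by RNA-seq in 16 libraries. The authors deposited 1 table of whole-number read counts over exons per RefSeq transcript, with library totals per the file headers, and 3 lists of BCOR peaks in hg19 whose deposited score is 0 throughout, so only their positions were used. Per the submitters' processing notes the tools included FastQC, Trimmomatic, TopHat2, Bowtie 0.12.9, HOMER 4.10.3 and bedtools, with no role given. The strand setting of the counting is not given in the sources used here, and antisense and overlapping genes share reads: PCNA-AS1 had 24.9% as many reads as PCNA. One transcript, that with most reads, stood for each symbol, and transcripts without a gene name (0.0664% of the counts) were left out.

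All 16 libraries entered 1 edgeR 4.0.16 fit (R 4.3.3) of 4 group means with TMM scaling, filterByExpr and the quasi-likelihood test, with Benjamini-Hochberg adjustment over 16432 genes. Labels do not say that the replicates were separate cultures beyond calling them biological. Promoters of 1 chromosome were left out of the counts by call, and these and the results of some genes are not reported here. Intervals and floors cover counting error only, since reads carry no molecular identifiers. The members and gene lists were chosen with earlier results of these data known. Genes were named by rule: BCOR and NR3C1, up to 4 called genes per list and direction with the smallest p, the 12 largest folds per direction among genes averaging 50 counts or more whose groups did not overlap, the 10 largest RPKM changes per direction, and genes with at most 3 vehicle reads. Beyond these, KLF9, FOXO1, FOXO3, DUSP6, SPRY1, SPRY4, ERRFI1, SOCS2, TNFAIP3, IRS2, DDIT4, TXNIP, SCNN1A, ID1, ID2, ID3, SMAD6, SMAD7, FOS, BCL2L11, PER2, EZH2, TERT, PPARGC1A, FOXC2 and the marker genes were named after their values were seen. Alternatives were RLE and upper-quartile scaling, DESeq2 1.42.0, other filters, only the siNON libraries, the replicate number as a block, left-out libraries and the longest transcript.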

Additional observations from a re-analysis of the deposited data

Results flagged for a closer look

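In 31 of 420 groups of 4 libraries, 1 library lay far from the other 3 by Dixon's ratio, where chance gives about 1 in 20. Dex replicate 4 was that library in 15 and vehicle replicate 3 in 4 of them. The 31 include the vehicle groups of PNLIP, SLA and SPINK13, which had 1 read each, and of TRPC5OS, which had 3 reads, none of them in replicate 2. A single read sets 1 library apart by construction, and so does 1 read in each of 3 libraries. The 1 in 20 does not apply to these groups.

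Dex replicate 4 stood alone in FGF9 (4.60 CPM against 3.54 to 3.70 in the rest), EGFR (24.5 CPM against 32 to 33.2 in the rest), NRP1 (20.2 CPM against 24.1 to 24.8 in the rest), MYCL (18.1 CPM against 21.3 to 21.9 in the rest), NCL (1187 CPM against 993 to 1016 in the rest), BCL2L11 (48.3 CPM against 55.4 to 56.8 in the rest), SOX9 (37.1 CPM against 46.3 to 48.1 in the rest), MSX2 (25.2 CPM against 29.7 to 30.2 in the rest), PCDH19 (14.9 CPM against 18.4 to 19.0 in the rest), NPC1 (107 CPM against 136 to 139 in the rest), KDM6A (48.9 CPM against 44.7 to 45.4 in the rest), ANOS1 (10.7 CPM against 7.45 to 7.88 in the rest), LOC102724484 (2.86 CPM against 1.48 to 1.69 in the rest), SLA (0.448 CPM against 0.724 to 0.778 in the rest) and NANOG (3.42 CPM against 2.77 to 2.87 in the rest). Vehicle replicate 3 stood alone in PTGES3 (741 CPM against 707 to 712 in the rest), SCNN1A (0.550 CPM against 0.813 to 0.836 in the rest), MYC (178 CPM against 226 to 227 in the rest) and PNLIP (0.0423 CPM against 0 in the rest). Vehicle replicate 4 stood alone in IRS4 (437 CPM against 551 to 573 in the rest), SLA (0.0451 CPM against 0 in the rest) and SPINK13 (0.0451 CPM against 0 in the rest). Vehicle replicate 2 stood alone in HRK (30.3 CPM against 20.4 to 22.1 in the rest), ARNTL (10.1 CPM against 9.48 to 9.57 in the rest) and TRPC5OS (0 CPM against 0.0398 to 0.0451 in the rest). Vehicle replicate 1 stood alone in HOXA9 (162 CPM against 151 to 152 in the rest) and HOXA-AS3 (33.9 CPM against 29.8 to 30.2 in the rest). Dex replicate 1 stood alone in SMAD6 (3.72 CPM against 4.09 to 4.11 in the rest), CDKN1C (84.1 CPM against 73.0 to 74.2 in the rest) and SCRG1 (1.03 CPM against 0.735 to 0.785 in the rest). Dex replicate 2 stood alone in CCN2 (9.81 CPM against 8.28 to 8.35 in the rest).

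In the reported fit, the response to dexamethasone was called different between siNON and siBCOR cells in 6 of the genes given above. The test was that of the difference itself (edgeR's quasi-likelihood test, Benjamini-Hochberg adjustment). Adjusted p ran from 7.3e-05 for PDGFA to 0.047 for SLC39A14 and S100P. The number of such calls was not stable, and which of the 6 stayed called in each alternative is not given here. The siNON minus siBCOR log2 difference was 0.63 for ACSL1, 0.48 for SLC39A14, 1.86 for PDGFA, 0.69 for NSDHL, 0.39 for INSIG1 and 1.40 for S100P.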

How the results depend on the processing

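The counts of genes higher and lower stayed within 1.5 times the reported 1760 and 1420 in every alternative run: leaving out 1 library gave 1373 to 2073 higher and 1140 to 1978 lower, and DESeq2 gave 1675 and 1680. No gene called in both was called in opposite directions. The count of responses that differ from siBCOR cells was the least stable: 16 became 5 with RLE scaling, 2 to 2537 when 1 library was left out, the highest without dex replicate 4, and 1790 without dex replicate 4 and vehicle replicate 3 together. The cause was not tested. With 10 kb in place of 50 kb, 14.7% of the genes that rose and 4.08% of all tested had a dex-enriched peak, since a smaller window holds fewer peaks. The log2 value of TERT, not called in any fit, ran from -0.095 to 0.053 when 1 library was left out and was 0.050 without vehicle replicate 2 and 0.053 without dex replicate 2.

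With the replicate number as a block, 1673 genes rose, 1351 fell and 3 responses differed from siBCOR cells. Deviations of same-numbered vehicle and dex libraries correlated at r = 0.52, -0.01, -0.87 and -0.52 across genes. Deviations within a group depend on each other, so these values cannot decide whether same-numbered libraries belong together. Pairing of the libraries was not tested further. Depth limits the 19 genes with at most 3 vehicle reads, whose folds are bounds or have wide counting intervals.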
